A study of Mus musculus with 10 samples.

Results

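A pair of histone marks of active chromatin was set side by side in untreated mouse neural stem and progenitor cells: trimethylation of histone H3 at lysine 4 (H3K4me3) and crotonylation of histone H3 at lysine 9 (H3K9cr). All peaks of the 2 control lists on chromosomes 1 to 19 were taken, 16714 for H3K4me3 and 31019 for H3K9cr, 47733 of the 273422 peaks in the 8 lists of the series. The cells were taken from E13.5 forebrain, expanded in culture with epidermal and fibroblast growth factor at 20 ng/ml each, and received water for 24 h as the control treatment. Whether embryos or plates were pooled is not stated in the labels. The cells of the crotonate lists, used here only beside the control values, were grown in the same way and received 10 mM crotonate for 24 h. Chromatin was immunoprecipitated without crosslinking, and each mark and treatment had 1 library. No value below therefore has a replicate check, the differences were not tested, and intervals are exact (Clopper-Pearson) 95% intervals that cover counting error only.

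H3K4me3 is laid down by COMPASS-type methyltransferases and marks the starts of active and poised genes, above all those with CpG islands. H3K9cr is an acylation added by acetyltransferases such as p300 when crotonyl-CoA is available, read by YEATS and double PHD finger domains, and is known from active promoters and enhancers. Acetylation of lysine 27 (H3K27ac) marks active promoters and enhancers. Trimethylation of the same lysine (H3K27me3), set by Polycomb complexes, marks silenced genes and, together with H3K4me3, the poised or bivalent promoters of developmental regulators. The labelled cell type was checked against gene lists, and 23 of 24 measured neural stem and progenitor genes carried H3K4me3 at their start. The mark was found at 2 of 13 microglial and blood genes, 4 of 12 endothelial and 8 of 14 mesenchymal and pericyte genes. It was also found at 9 of 24 mesoderm and endoderm and 1 of 39 Hox genes. Neuronal and glial lists were marked more often, with 17 of 20 neuron differentiation factors and 16 of 19 neuronal cytoskeleton and synapse genes. Astrocyte genes had 10 of 14 and oligodendrocyte genes 10 of 13. H3K4me3 at the start thus did not separate progenitors from neurons or glia. All 6 microglial, blood and endothelial genes with H3K4me3 also had H3K27me3 at their start. At Spi1, however, the H3K4me3 peak itself did not overlap H3K27me3, and at Spi1, Kdr and Erg it overlapped H3K27ac. Across all genes 62.7% had H3K4me3 (12958 of 20665 protein-coding genes, counted within 1 kb of a start).

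The promoters of 3 kinds of genes described below are printed first, because the number of CG dinucleotides, in capitals, is taken up at the end. Each is the 250 bases before a RefSeq gene start (GRCm38.p6), written 5′ to 3′ on the strand of the gene. Mak, Nkx3-2 and Bmp6 had H3K4me3 without H3K9cr, and their 250 bases hold 9, 21 and 22 CG.
Mak (chr13:41079707-41079956, minus strand): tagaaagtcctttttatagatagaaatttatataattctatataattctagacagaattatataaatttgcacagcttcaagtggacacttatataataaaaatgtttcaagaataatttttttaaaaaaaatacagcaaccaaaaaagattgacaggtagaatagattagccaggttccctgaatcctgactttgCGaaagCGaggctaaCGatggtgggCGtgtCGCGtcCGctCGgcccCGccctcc
Nkx3-2 (chr5:41764221-41764470, minus strand): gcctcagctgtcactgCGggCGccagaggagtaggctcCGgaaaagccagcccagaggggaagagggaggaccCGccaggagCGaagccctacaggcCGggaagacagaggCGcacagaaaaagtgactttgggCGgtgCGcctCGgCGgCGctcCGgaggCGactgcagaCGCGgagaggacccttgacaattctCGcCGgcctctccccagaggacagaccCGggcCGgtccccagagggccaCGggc
Bmp6 (chr13:38345466-38345715, plus strand): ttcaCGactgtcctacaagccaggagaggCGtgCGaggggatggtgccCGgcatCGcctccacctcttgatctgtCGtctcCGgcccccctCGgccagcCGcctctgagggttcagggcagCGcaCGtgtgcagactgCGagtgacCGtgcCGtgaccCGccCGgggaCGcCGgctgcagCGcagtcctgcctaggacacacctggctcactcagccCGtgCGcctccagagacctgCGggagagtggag
Smim38, Phyhd1 and Casq1 had H3K9cr without H3K4me3, and their 250 bases hold 1, 1 and 3 CG.
Smim38 (chr7:145208120-145208369, minus strand): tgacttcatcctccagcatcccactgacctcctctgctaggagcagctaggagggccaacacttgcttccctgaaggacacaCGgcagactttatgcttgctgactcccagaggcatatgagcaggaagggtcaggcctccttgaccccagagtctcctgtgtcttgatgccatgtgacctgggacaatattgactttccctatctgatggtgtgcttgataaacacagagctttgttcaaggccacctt
Phyhd1 (chr2:30265953-30266202, plus strand): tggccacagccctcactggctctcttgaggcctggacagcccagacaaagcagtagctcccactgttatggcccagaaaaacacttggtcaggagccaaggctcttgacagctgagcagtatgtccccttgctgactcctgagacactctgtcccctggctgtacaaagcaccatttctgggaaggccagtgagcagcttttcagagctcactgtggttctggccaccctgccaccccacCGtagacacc
Casq1 (chr1:172219896-172220145, minus strand): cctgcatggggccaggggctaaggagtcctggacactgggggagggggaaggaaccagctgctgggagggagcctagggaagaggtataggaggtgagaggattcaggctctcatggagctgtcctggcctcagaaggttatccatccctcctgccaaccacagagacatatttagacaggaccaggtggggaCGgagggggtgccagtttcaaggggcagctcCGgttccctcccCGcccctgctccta
Arpc4, Atp5md and Rspry1 stood near the top of both lists, and their 250 bases hold 14, 32 and 18 CG.
Arpc4 (chr6:113377863-113378112, plus strand): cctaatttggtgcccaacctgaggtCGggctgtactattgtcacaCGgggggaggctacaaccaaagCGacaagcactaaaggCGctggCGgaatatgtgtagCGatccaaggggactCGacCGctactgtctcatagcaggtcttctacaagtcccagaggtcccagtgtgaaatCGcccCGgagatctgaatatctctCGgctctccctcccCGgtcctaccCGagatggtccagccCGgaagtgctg
Atp5md (chr19:47090648-47090897, minus strand): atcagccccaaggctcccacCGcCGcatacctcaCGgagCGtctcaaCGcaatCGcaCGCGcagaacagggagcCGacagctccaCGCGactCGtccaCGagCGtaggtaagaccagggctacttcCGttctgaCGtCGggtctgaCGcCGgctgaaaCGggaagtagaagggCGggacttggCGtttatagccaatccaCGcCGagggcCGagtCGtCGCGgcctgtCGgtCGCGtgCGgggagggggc
Rspry1 (chr8:94601691-94601940, plus strand): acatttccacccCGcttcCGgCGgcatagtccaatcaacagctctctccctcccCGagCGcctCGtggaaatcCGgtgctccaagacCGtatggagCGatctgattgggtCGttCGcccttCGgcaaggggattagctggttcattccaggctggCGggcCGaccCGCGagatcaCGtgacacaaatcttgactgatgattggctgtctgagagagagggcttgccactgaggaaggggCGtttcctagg

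Nearly every H3K4me3 peak overlapped H3K9cr, whereas H3K9cr also occupied many places without H3K4me3. With an overlap of at least 1 bp, 16464 of the H3K4me3 peaks had a partner and 250 had none (1.5%, 95% interval 1.32 to 1.69). Of the H3K9cr peaks 16198 had a partner and 14821 had none (47.8%, 47.2 to 48.3). H3K4me3 covered 26.2 Mb and H3K9cr 44.2 Mb, and the 25.6 Mb covered by both made up 97.8% of the H3K4me3 length and 57.9% of the H3K9cr length. H3K9cr outside H3K4me3 came to 12.2 Mb in peaks of its own and 6.42 Mb at the margins of shared peaks. These shares follow from where each list ends. With the H3K9cr list shortened to the 16714 strongest peaks, 12.7% of the H3K4me3 peaks and 14.4% of the H3K9cr peaks had no partner.

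Partnership rose with rank in both lists. Peaks were ranked by the authors' -log10 q-value, and a percentile gives the share of a list at or below a peak. In the weakest 10% of the H3K4me3 list 89.2% of the peaks had a partner (87.7 to 90.7), and all 250 without a partner lay in the weakest 40%, 183 of them in the weakest 10%. In the H3K9cr list the share climbed from 4.22% in the weakest 10% (3.54 to 4.99) through 34.4% and 58.9% in deciles 5 and 6 to 100% in the strongest. Only 11 H3K9cr peaks of the upper 25% stood without H3K4me3.

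**Figure D1:**
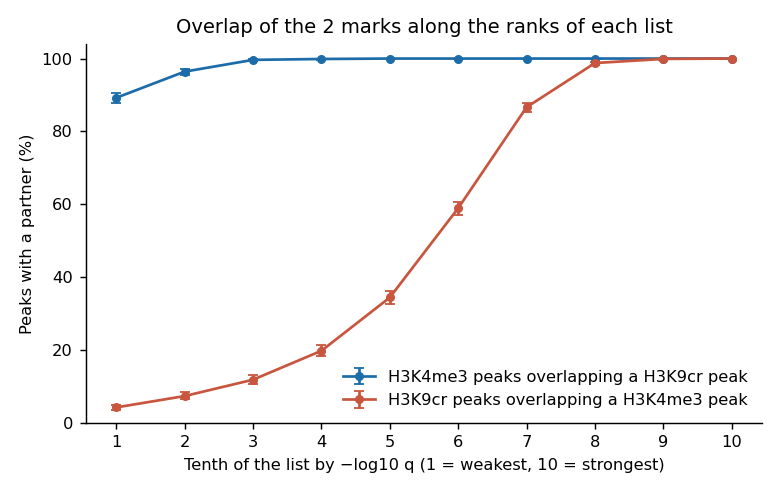
Share of peaks (%, vertical axis) that overlap a peak of the other mark in each decile of the list by −log10 q (horizontal axis, 1 weakest), with exact 95% intervals over peaks as bars. H3K4me3 starts at 89.2% and reaches 100%, while H3K9cr starts at 4.22% and reaches 100% only at the top.

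Where H3K4me3 lacked H3K9cr from the full list, the site usually carried H3K27me3 and rarely H3K27ac. Of the 250 such peaks, 73.2% overlapped H3K27me3 and 4% H3K27ac, and their median width was 385 bp and median fold enrichment 5.40. Fold enrichment is the authors' ratio of the pileup, the fragment coverage at the summit, to the local background. Against peaks of like strength the difference was still there: in the weakest 10% of the H3K4me3 list, the 183 peaks without H3K9cr overlapped H3K27me3 in 79.2% (72.6 to 84.9) and H3K27ac in 2.73% of cases (0.893 to 6.26). The 1516 peaks with H3K9cr in that decile did so in 31.7% (29.4 to 34.1) and 68.7% (66.3 to 71.0). In the crotonate H3K9cr list 66.8% of the 250 places were touched by a peak, as were 96.8% of those 1516. The H3K4me3 peaks themselves recurred in the crotonate H3K4me3 list in 92.8% of cases. With the H3K9cr list shortened to the length of the H3K4me3 list, 2127 H3K4me3 peaks had no partner. Of those, 63.7% overlapped H3K27me3 and 28.4% H3K27ac, against 23.6% and 96.9% of the 14587 with a partner. H3K27ac was thus less rare at unpartnered H3K4me3 peaks there, though the direction of both differences stayed.

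H3K9cr without H3K4me3 mostly lay within genes or between them. Of these 14821 peaks, 53.7% lay in the body of a protein-coding gene away from its start, 38.2% outside protein-coding genes and annotated starts, and 4.47% within 1 kb of a protein-coding start. H3K27ac overlapped 89.9% of them, much as the 89.4% of partnered H3K9cr peaks, and H3K27me3 9.11%, against 29.0% of partnered peaks. Within the lower 50% of the list, H3K27ac overlapped 88.7% of 13083 unpartnered and 38.6% of 2405 partnered peaks, and H3K27me3 9.39% and 62.1%. The median distance from an unpartnered H3K9cr peak to the nearest H3K4me3 peak was 30.8 kb, and 1.92% lay within 1 kb and 13.4% within 5 kb. Their median width was 614 bp and median fold enrichment 5.70. In the crotonate lists 69.0% were touched by H3K9cr and 4.06% by H3K4me3.

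The strongest H3K9cr peaks without H3K4me3 were wide. The top peak, at chr7:109967416-109970072 and 6.95 kb from a start of Dennd5a, had a pileup of 601 and a fold enrichment of 127. A peak in the gene body of Lsp1, a leukocyte actin-binding protein, had a pileup of 549 and a fold enrichment of 116. An 8512 bp peak in Bcan, the brain proteoglycan brevican, lay 9.65 kb from the start of Nes, which encodes the progenitor filament nestin. Its pileup was 546 and its fold enrichment 115. Others lay inside Fyn, a Src-family kinase (fold enrichment 83.9), and Hmga2, a chromatin protein of early progenitors (81.2). All 20 strongest carried H3K27ac, none carried H3K27me3, and all 20 recurred in the crotonate H3K9cr list. They lay in deciles 8 and 9 of the H3K9cr list, where 100% of all peaks overlapped H3K27ac, so this is the share of that rank. H3K27me3 overlapped 21.1% and 9.30% of all peaks in these deciles. Of all partnered H3K9cr peaks, 99.5% recurred in the crotonate H3K9cr list.

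At shared sites H3K9cr reached a little further than H3K4me3 on both sides. The median reach beyond the H3K4me3 edge was 114 bp on either side, and the summed reach had a median of 243 bp (25th to 75th percentile 76 to 487 bp). H3K9cr lay beyond both edges at 69.0% of the 16464 partnered H3K4me3 peaks (68.3 to 69.7) and inside both edges at 7.54% (7.15 to 7.96). The summits of the marks were 29 bp apart in the median and within 200 bp of each other in 83.3% of pairs. At the 8639 peaks whose protein-coding starts all lay on 1 strand, the median was 99 bp upstream and 107 bp downstream. Downstream exceeded upstream at 52.4% of them (51.3 to 53.5). A reach of over 1 kb was found downstream at 251 and upstream at 170.

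The reach differed with the other marks at the site. The summed median was 296 bp at the 11535 H3K4me3 peaks with H3K27ac and without H3K27me3, 174 bp at the 3192 with both, -11 bp at the 1416 with H3K27me3 alone and 29 bp at the 321 with neither mark. In the median, the called H3K9cr peak was thus no wider than that of H3K4me3 at those 1416. Those were also weak pairs, and width is tied to strength in both lists. Ranked among the pairs, their median percentile was 17.0 for H3K4me3 and 6.44 for H3K9cr. At the 11535 it was 62.25 and 62.26. The reach was not compared between these groups at like strength. Of the 1242 peaks where H3K9cr lay inside both edges, 66.0% overlapped H3K27me3, against 28.0% of all pairs. Among the 1205 peaks with a reach of over 1 kb on at least 1 side, 97.5% overlapped H3K27ac, against 89.4% of all pairs. Where the H3K9cr peak spanned several H3K4me3 peaks (623 H3K4me3 peaks) the summed median was 3195 bp, and without them it was 229 bp.

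**Figure D2:**
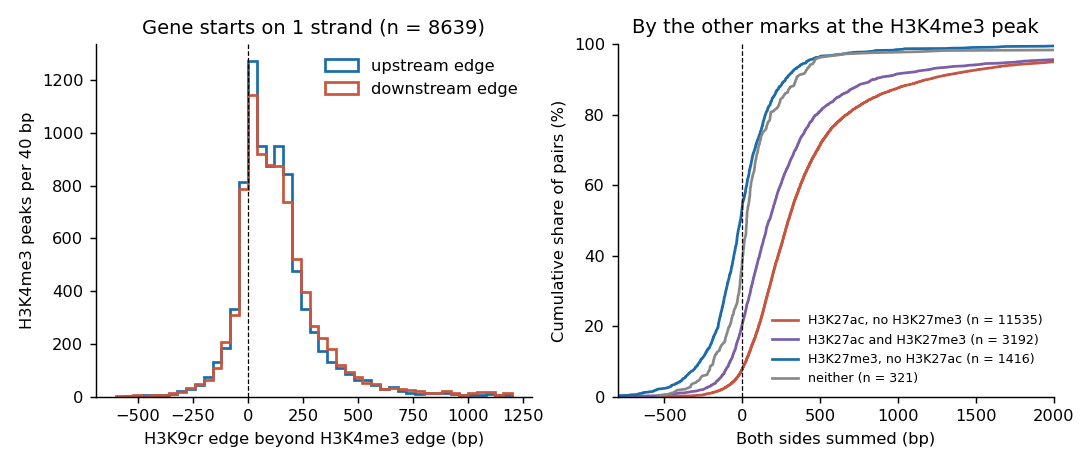
Left, number of H3K4me3 peaks per 40 bp by the distance from the H3K4me3 edge to the H3K9cr edge (bp, positive where H3K9cr reaches further), for 8639 peaks at gene starts on 1 strand; right, cumulative share of pairs (%) by the reach summed over both sides, by the other marks at the peak. Both edges peak just above 0, and the curve for H3K27me3 without H3K27ac crosses 50% at about 0 while that for H3K27ac without H3K27me3 does so near 300 bp.

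At the 8 genes with the widest reach H3K9cr formed continuous peaks over 2 to 4 H3K4me3 peaks. At Pou3f3, a POU-domain factor of neural progenitors, H3K9cr extended 5251 bp and 9113 bp beyond the H3K4me3 peak of the start and spanned 4 H3K4me3 peaks. At Sox2, the SoxB factor that maintains neural progenitors, the summed reach was 12926 bp and again 4 H3K4me3 peaks were spanned. Pax6, a regulator of cortical progenitors, had 10247 bp and Zeb2, a zinc finger repressor of neural development, 9475 bp. For Pax6 this is measured from a weak H3K4me3 peak at a start (fold enrichment 8.18), while the strongest of the 3 H3K4me3 peaks inside the H3K9cr peak had 148. Zmynd8, a reader of acetylated chromatin (9898 bp), Midn (9486 bp) and Tnrc18 (7110 bp) were also among the 8 largest.

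At the other end H3K9cr stayed within H3K4me3 at neuronal and non-neural genes that all carried H3K27me3. At Kcnk12, a potassium channel subunit gene, H3K9cr fell short by 721 bp and 359 bp on the lower and the upper side. The summed values were -1004 bp at Car10, a carbonic anhydrase-related gene, -988 bp at Adcy8, an adenylyl cyclase, and -984 bp at Gata6, an endoderm and heart factor. Nrg3, a neuregulin ligand, had -810 bp and Adamts2, a procollagen protease, -783 bp. H3K27me3 fold enrichment at these 6 starts ran from 33.1 at Adcy8 to 269 at Gata6, and H3K27ac was called at Adcy8 only, with 3.89.

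The ranks of the marks ran together. Over the 16464 pairs Spearman's rho of the -log10 q-values was 0.846, given as a description, since pairs share the cells, and strength is tied to peak width in both lists (rho 0.737 for H3K4me3 and 0.698 for H3K9cr). It was 0.845 for the 12197 pairs at protein-coding starts and 0.549 for the 4267 elsewhere. Split by H3K4me3 strength it was 0.630 in the upper and 0.601 in the lower 50%. With the pairs cut into quartiles by each mark, 63.3% fell in the same quartile of both (62.6 to 64.1) and 2.96% were 2 or more quartiles apart (487 pairs). No pair joined the strongest H3K4me3 quartile with the weakest H3K9cr quartile, whereas 101 joined the weakest H3K4me3 quartile with the strongest H3K9cr quartile. A weak H3K4me3 peak takes the rank of any strong H3K9cr peak it shares with other H3K4me3 peaks, as could happen at 623 H3K4me3 peaks. How many of the 101 were of this kind was not counted. Over the 15782 one-to-one pairs rho was 0.883.

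At like H3K4me3 rank, H3K9cr was weaker where H3K27ac was absent and, in the lower and middle deciles, where H3K27me3 accompanied H3K27ac. Percentiles were taken among the pairs, and the difference is H3K9cr minus H3K4me3. Its median was 0.456 with H3K27ac and without H3K27me3, -4.62 with both, -9.62 with H3K27me3 alone (n = 1416) and -5.58 with neither (n = 321). In decile 3 of H3K4me3 strength, where median H3K4me3 fold enrichment was 23.3, 25.4 and 22.5 in the H3K27ac, double and H3K27me3 groups, median H3K9cr fold enrichment was 31.9, 21.1 and 10.9. Pairs with neither mark, 57 in that decile, had 12.2, close to those with H3K27me3 alone, and in decile 2 the values were 8.02 with neither and 7.21 with H3K27me3 alone. In decile 5 it was 72.4 with H3K27ac alone and 51.3 with both marks. In the top 2 deciles the order was turned, with 136 for H3K27ac alone and 139 for both in decile 9, and 163 and 177 in decile 10.

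**Figure D3:**
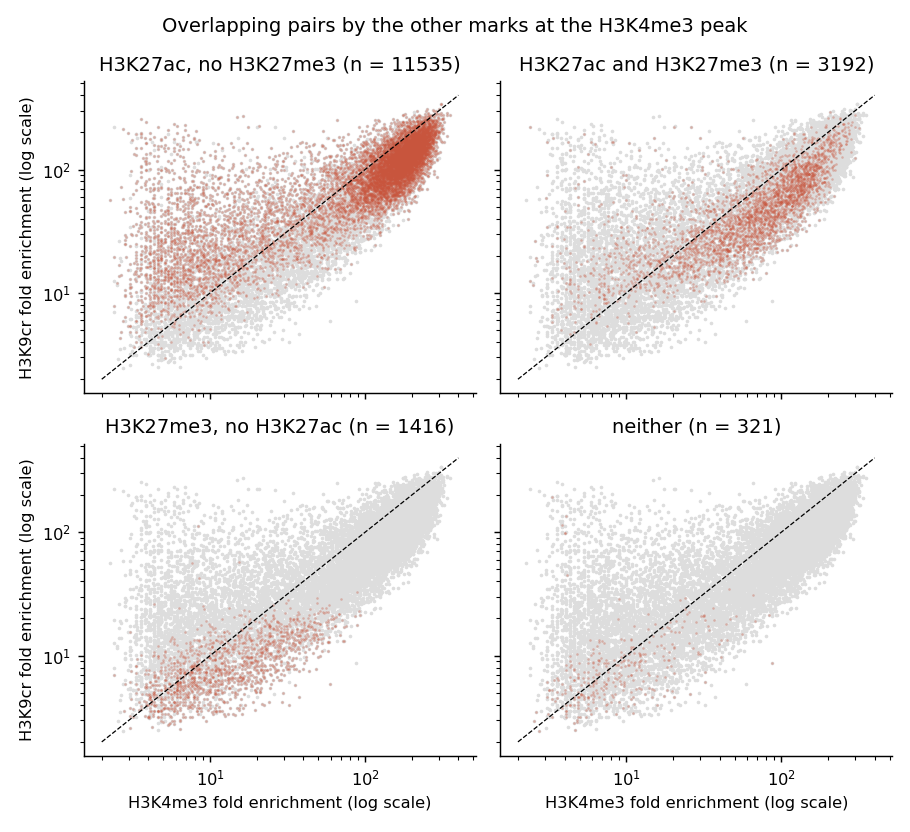
H3K9cr fold enrichment against H3K4me3 fold enrichment, both on log scales, for the 16464 overlapping pairs (grey) with the pairs of each state in red, and the dashed line of equal values. Pairs with H3K27me3 and without H3K27ac lie low and to the left, mostly under the line, while those with H3K27ac alone reach the upper right and fill the upper left.

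Genes with H3K4me3 and weak or missing H3K9cr were few. Of the 12958 genes with H3K4me3, 335 (2.59%) had no H3K9cr peak or only peaks from the lowest 25% of the H3K9cr list, 109 (0.841%) having none and 226 (1.74%) a low-ranked peak. None of the 8999 genes with H3K4me3 in the upper 50% of its list was among them, which allows a share of up to 0.041%. The highest H3K4me3 percentile was 23.2 among genes with no H3K9cr and 29.1 among those with a low-ranked peak. Just inside the limit of 25% stood Wnt3, Wnt4 and St14 at H3K9cr percentiles of 24.4 to 24.98, and just outside it Ankrd63, Spag16 and Ocln at 25.1 to 25.2.

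These genes were bivalent for the most part. H3K27me3 lay at 82.6% of the 109 without H3K9cr (74.1 to 89.2) and at 85.8% of the 226 with low-ranked H3K9cr (80.6 to 90.1), and H3K27ac at 0.917% and 3.54%. In the lowest 10% of H3K4me3, where median H3K4me3 fold enrichment was 4.86 for the 193 such genes and 5.62 for the 137 with stronger H3K9cr, H3K27me3 lay at 82.9% (76.8 to 87.9) and 59.1% (50.4 to 67.4). H3K27ac lay at 1.55% (0.322 to 4.47) and 52.6% (43.9 to 61.1) of them. Within the lowest 10% of H3K4me3 the share with no or low-ranked H3K9cr was 66.4% of 241 genes with H3K27me3 (60.04 to 72.3) and 37.1% of 89 without (27.1 to 47.97). Between 10 and 25% it was 20.1% of 592 (16.9 to 23.6) and 7.69% of 221 (4.55 to 12.03). With the H3K9cr list shortened to the length of the H3K4me3 list, 892 genes instead of 109 had H3K4me3 and no H3K9cr. H3K27me3 lay at 82.2% of those and H3K27ac at 16.1%. Low-ranked H3K9cr was then found at 948 genes instead of 226, with H3K27me3 at 78.5% and H3K27ac at 73.3%. The counts and the low H3K27ac shares thus depended on where the H3K9cr list ends. After crotonate 68.8% of the 109 starts carried an H3K9cr peak, as did 90.3% of the 226 and 99.5% of all H3K4me3-marked genes.

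**Figure D4:**
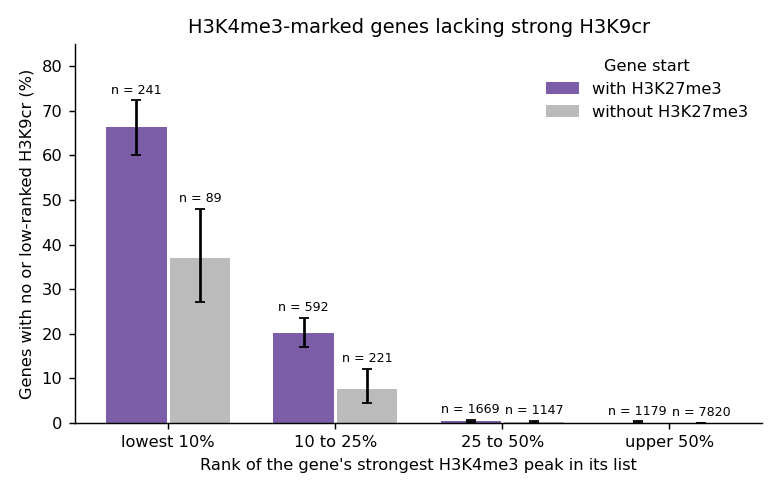
Share of H3K4me3-marked genes (%, vertical axis) with no or low-ranked H3K9cr, by the rank of the strongest H3K4me3 peak of the gene and by H3K27me3 at the start, with exact 95% intervals over genes. In the lowest 10% the bars stand at 66.4% with and 37.1% without H3K27me3, and above 50% no gene is counted.

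The 15 genes with the strongest H3K4me3 and no H3K9cr are of several kinds. At Grm7, a metabotropic glutamate receptor gene, H3K4me3 had a pileup of 51 and a fold enrichment of 13.3 and H3K27me3 a fold enrichment of 45.5. Kcnh1, a voltage-gated potassium channel gene, had 46 and 12.01, and Epha6, an ephrin receptor gene, 47 and 10.1. Nkx3-2, a homeodomain factor of the skeleton, had 39 and 10.2 with H3K27me3 at 182. Bmp6, a bone morphogenetic protein, had 38 and 9.97 with H3K27me3 at 81.3, and Sim1, a hypothalamic factor, 36 and 8.996 with H3K27me3 at 143. Slc6a21, Hs3st4, Mak, Calcr, Kcns2, Fam83g, Rfx6 and Nefh had H3K4me3 fold enrichments of 8.74 to 13.3 and carried H3K27me3 too. Oasl1, an interferon-induced gene, was alone among these 15 in lacking H3K27me3.

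Among genes with low-ranked H3K9cr the gap between the percentiles within each list was largest at Bnc1, a zinc finger factor of epithelia and germ cells. Its H3K4me3 pileup was 62 and its H3K9cr pileup 15, and H3K27me3 stood at 192-fold. Hmx1, a homeobox factor, had the highest H3K4me3 pileup of these 12 genes, with 113 against 19. Rxfp3, a relaxin peptide receptor, had fold enrichments of 22.1 for H3K4me3 and 4.01 for H3K9cr. Neurod1, a proneural bHLH factor of differentiating neurons, and Pou4f1, a factor of sensory neurons, both had pileups of 75 against 22. Epcam, Kcnj3, Grem1, Smoc2, Olfr94, Hs3st2 and Kcnk12 had H3K4me3 pileups of 36 to 68 and H3K9cr pileups of 13 to 17. All 12 carried H3K27me3 and lacked H3K27ac. This ranking was chosen after the values were seen, since no gene met the planned one, H3K4me3 in the upper 50% with low-ranked H3K9cr.

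The 22 gene lists are described by counts, beside the 2.59% of all H3K4me3-marked genes and the 28.8% of the 1143 genes with H3K4me3 in its lowest 25%, which hold 329 of the 335 such genes. A list with few genes of weak H3K4me3 could therefore hold few of them. Of 17 neuron differentiation factors with H3K4me3, 10 had it in the lowest 25%, and 6 of those 10 had no or low-ranked H3K9cr. Among the 6, Neurod1 and Dlx5, an interneuron homeobox factor, had H3K9cr at 3.66-fold and 4.43-fold with H3K27me3 at 146-fold and 264-fold. The proneural factors Neurog1 and Neurog2 had H3K9cr at 4.01-fold and 3.798-fold. For the mesenchyme and pericyte list it was 4 of 8, all among its 6 genes of weak H3K4me3 (Twist1, Foxd1, Col1a2 and Anpep), for mesoderm and endoderm factors 2 of 9, of which 8 were weak (Foxa1 and Mixl1), and for receptor and channel genes 3 of 18, of which 4 were weak (Drd2 and Scn1a among them). In the neuronal cytoskeleton and synapse list it was 1 of 16, Stmn2, a tubulin-binding protein of growing axons. The cilium (Spef2), interferon (Ifit1), endothelial (Sox18) and microglia and blood (Tal1) lists had 1 each, of 17, 9, 4 and 2.

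Lists with mostly strong H3K4me3 held no such gene. None was found among 23 neural stem and progenitor genes, of which 1 had H3K4me3 in the lowest 25%, nor among 10 astrocyte, 10 oligodendrocyte, 19 Wnt, Bmp, Fgf and Shh signalling, 23 cell cycle, 26 ribosomal protein, 24 replication-dependent histone, 22 acyl-CoA metabolism and 19 Polycomb genes with H3K4me3, lists with 0 to 2 such weak genes each. The same held for the 14 H3K4 methyltransferase and demethylase genes and the 20 crotonylation writer, reader and eraser genes, none of which had weak H3K4me3. The writer genes Ep300 and Crebbp had H3K9cr at 176-fold and 135-fold. Pluripotency and germ line (3) and Hox (1) genes with H3K4me3 were too few to describe. H3K27me3 accompanied H3K4me3 at 17 of the 23 stem and progenitor genes and at 15 of the 17 differentiation factors, so most genes of both lists carried it.

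Lists also differed in how the ranks compared. Over the 12846 genes with a pair, the H3K9cr percentile was above the H3K4me3 percentile in 36.7%, with a median difference of -3.81. It was above at 15 of the 23 stem and progenitor genes (median 5.88) and at 1 of the 16 neuron differentiation factors with a pair (median -7.22). Fabp7, the radial glia lipid-binding protein, had percentiles of 68.4 for H3K4me3 and 93.3 for H3K9cr, and Sox2 74.1 and 94.5. Myt1 was the exception among the differentiation factors, with 30.2 and 37.1. Synaptic, channel and signalling lists had medians of -8.86, -8.78 and -8.07. For stem and progenitor genes the count was 11 of 23 in the crotonate lists (median -1.06), so the sign of the median turned there. For the differentiation factors the count was 0 of 17. The cell cycle and DNA replication list also turned, from 7 of 23 in control (median -8.70) to 16 of 23 (median 4.42). The share over all genes was not taken in the crotonate lists, so these turns were not set against it.

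The widest gap belonged to the replication-dependent histone genes, which are transcribed in S phase without polyadenylation. All 24 had the higher percentile in H3K9cr, by 15.1 to 48.9 (median 29.9). They share 17 H3K4me3 peaks, since neighbours in the histone clusters fall under common peaks, and are not independent. Their H3K4me3 fold enrichment ran from 33.1 to 136 with a median of 77.7, below the median of 150.2 over all marked genes. Their H3K9cr fold enrichment ran from 69.9 to 169 with a median of 118, above the 98.4 of all marked genes. H1f5, a linker histone gene, had 105 for H3K4me3 and 136 for H3K9cr, and H4c8, a histone H4 gene, 136 and 162. None carried H3K27me3 at its start. In the crotonate lists all 24 again had the higher percentile in H3K9cr (median 34.2).

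**Figure D5:**
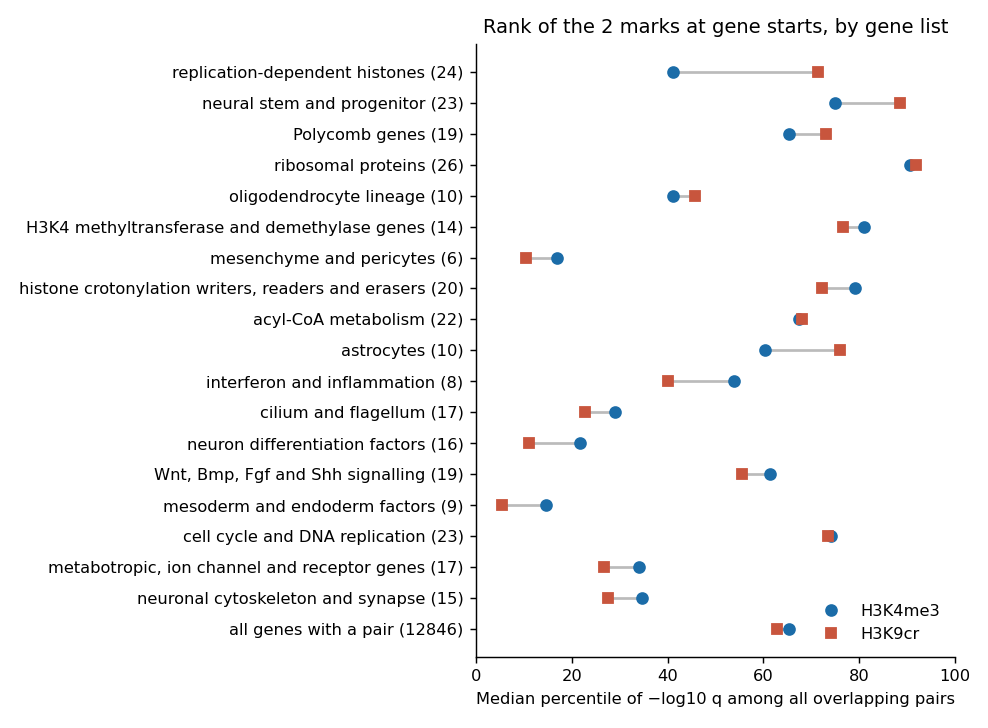
Median percentile of −log10 q among overlapping pairs (horizontal axis) for H3K4me3 (circles) and H3K9cr (squares) by gene list, with the number of genes with a pair in brackets, for lists with at least 5, ordered by the median of the differences within genes. Histone genes move from 41.2 to 71.3 and neural stem and progenitor genes from 74.9 to 88.6, while neuron differentiation factors move from 21.8 to 11.1; for the astrocyte, oligodendrocyte and acyl-CoA lists the medians and the median of the differences have opposite signs.

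Single genes stood apart as well, chosen after their values were seen from starts with H3K9cr peaks of 1 partner. Percentiles are again those among pairs. Heatr1, a ribosome biogenesis factor, ranked high in H3K4me3 (pileup 897, percentile 89.2) and in the middle in H3K9cr (287, 41.7). Lsm5, an RNA-binding Sm-like protein, had percentiles of 98.4 and 51.8, Nav2, a neuron navigator, 96.04 and 50.8, and Cenpu, a centromere protein, 90.8 and 46.9. In the other direction Polr2a, the largest subunit of RNA polymerase II, had 46.6 in H3K4me3 (pileup 393) and 96.5 in H3K9cr (972). Rtkn had 50.9 and 99.4, Hook2, a microtubule-linked adaptor, 35.2 and 86.01, and the shared start of Atp6v1g2 and Nfkbil1 44.5 and 97.9. H3K27ac was present at all 20 genes of the 2 rankings, some of which share a start, and at 92.1% of all genes with H3K4me3. Its fold enrichments were 7.49 to 22.4 where H3K4me3 ranked higher and 28.4 to 67.4 where H3K9cr did. These ranges did not overlap, but they come from extremes of both rankings and were not compared over all genes.

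The 8 genes highest in both lists follow. At the start shared by Arpc4, an actin-nucleating Arp2/3 subunit, and Tada3, a histone acetyltransferase adaptor, H3K4me3 had 338-fold and H3K9cr 288-fold enrichment. Tpp2, a peptidase, had 338-fold and 279-fold, Etf1, a translation release factor, 320-fold and 279-fold, Atp5md and Pdcd11, which share a start, 272-fold and 246-fold, and Psme3ip1, which shares its start with Rspry1, 353-fold and 277-fold. Hjurp, the CENP-A chaperone, had the highest pileup in both lists, 3247 and 2447, on an implied background of 11.6 and 14.2 against medians of 2.91 and 3.74 over the lists, so both its height and its background stood apart. H3K27ac lay at all 8 genes, with 37.5-fold to 51.6-fold enrichment, and H3K27me3 at none. This is near the shares of all strong peaks. In the strongest decile of either list 100% of peaks overlapped H3K27ac, and 4.55% (H3K4me3) and 6.42% (H3K9cr) overlapped H3K27me3.

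Genes with H3K9cr and no H3K4me3 at their start numbered 391, 5.07% of the 7707 genes without H3K4me3. At 360 of them the H3K9cr peak had no H3K4me3 partner, and at 31 it overlapped H3K4me3 outside the 1 kb window. The count was 250 among genes with a known start and strand, and 77 with the shortened H3K9cr list. Of the 391, H3K27ac lay at 61.6% (56.6 to 66.5) and H3K27me3 at 35.5% (30.8 to 40.5), and their median H3K9cr fold enrichment was 5.74. The 12 strongest were Vpreb1, Ehbp1l1, Tmem88b, Fat1, Nsd1, Zfp446, Mrpl4, Smim38, Rbbp8nl, Ssc5d, Hrc and Pxn, and in 11 of them the H3K9cr peak overlapped H3K4me3 beyond the window. Smim38 was the exception, with H3K9cr at 87.5-fold, pileup 427, and H3K27ac at 51.1-fold. Among peaks with no partner, chosen after the values were seen, followed Oacyl at 51.7-fold, Ghrh, the growth hormone-releasing hormone gene, at 35.9-fold, Lsp1 at 33.5-fold, Slc25a45, a mitochondrial carrier, at 33.3-fold and Hp, the haemoglobin-binding protein haptoglobin, at 31.3-fold. Scx, a tendon factor, had 30.2-fold, Phyhd1 29.8-fold, Casq1, calsequestrin of muscle, 29.5-fold and Rab17, a trafficking GTPase, 24.3-fold. With Smim38 these are 10 genes, and H3K27ac was called at all 10. For Oacyl, Lsp1, Hp and Scx the strand was not known, so the peak may lie at the 3′ end of the gene. The same holds for Nsd1, Zfp446, Mrpl4, Rbbp8nl, Ssc5d and Pxn among the 12 strongest.

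In the 22 lists, H3K9cr without H3K4me3 was found at 8 of the 127 genes without H3K4me3 (6.30%, near the 5.07% of all such genes). Of the 127, 1 is a neural stem and progenitor gene. The 8 were Acta2 and Tagln of smooth muscle (8.86-fold and 4.03-fold), P2ry12 of microglia (6.84-fold), Cldn5 of endothelium (3.25-fold), the interferon-linked Ifi44l and Cxcl10 (10.97-fold and 8.49-fold), Dnah5 of motile cilia (7.17-fold) and Gpr17 of the oligodendrocyte lineage (3.17-fold). The values are low beside the median of 98.4-fold over genes with H3K4me3, but lie around the median of 5.74-fold over all 391 genes with H3K9cr and no H3K4me3. Whether other cells in the cultures contributed was not tested. They make up 1 of the 11 microglial and blood genes without H3K4me3, 1 of the 8 endothelial and 2 of the 6 mesenchymal genes.

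Promoter sequence differed between the classes of genes. In the 300 bases from 250 before to 50 after a start, CG dinucleotides (the same on both strands) had a median count of 22 at genes with both marks, 17 with low-ranked H3K9cr, 18 with H3K4me3 and no H3K9cr, 6 with H3K9cr alone and 3 with neither. At least 10 were present in 89.7% (89.1 to 90.2), 74.3% (67.04 to 80.6), 77.8% (67.2 to 86.3), 29.6% (24.01 to 35.7) and 8.92% (8.20 to 9.69), against 60.2% of all 16457 genes with a sequence. Observed over expected CG had medians of 0.793, 0.623, 0.676, 0.322 and 0.175 in the same order. Genes with both marks and H3K4me3 in its lowest 25%, whose H3K4me3 was stronger (median fold enrichment 12.5, against 7.12 and 5.21 with low-ranked and no H3K9cr), had a median count of 14 and a ratio of 0.546. Promoters with H3K9cr alone had fewer CG than those of any class with H3K4me3, as in the sequences of Smim38, Phyhd1 and Casq1 above.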

How the data were processed

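Peak lists of control H3K4me3 and H3K9cr were compared on chromosomes 1 to 19, with the control H3K27ac and H3K27me3 lists and the crotonate lists as annotation. Each came from 1 library. The submitters' processing notes name Bowtie2 2.4.1, MACS2 2.2.7.1 and the build GRCm38. Calling settings, input use and read totals are not stated there or in the labels, so depth is unknown. The lowest implied background, (pileup + 1) / fold enrichment - 1, was 2.91 for H3K4me3 and 3.74 for H3K9cr.

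The deposited pileup is a coverage signal at the summit, per the file headers. Per the file headers, the deposited fold enrichment is a ratio to background. The authors' p-values and q-values are given as -log10 values, and both lists end near a q-value of 0.05. All were used only to describe and rank peaks. The antibodies differ between marks, so ranks were compared, and fold enrichments are given side by side.

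Partners overlapped by at least 1 bp, and an H3K4me3 peak was paired with its strongest H3K9cr peak. Genes were the 20665 RefSeq protein-coding genes (GRCm38.p6). Windows reached 1 kb either side of each start, taken from a promoter table and the annotated 5′ end for 16457 genes. For the other 4208, including the 511 on chromosome 18, strand was not available and both ends were used, so some windows lie at a 3′ end. Low-ranked H3K9cr means the lowest 25% of its list.

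Named genes, predicted symbols left out, were the 15 strongest with H3K4me3 and no H3K9cr, the 12 strongest with H3K9cr only, the 8 largest and 6 smallest reaches, the 8 highest in both lists, and per gene list up to 4 with no or low-ranked H3K9cr and 3 with H3K9cr only. A few genes that these rules name are not reported here. Members, lists and rules were chosen with earlier results of these data known. Promoter sequences are from RefSeq. Python 3.11.15, pandas 2.3.3, numpy 2.4.6 and scipy 1.17.1 were used, and the functions were checked on simulated peaks. The alternatives tried were a larger overlap, merged or fewer peaks, other windows, ranks and pairings, and added sex chromosomes.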

Additional observations from a re-analysis of the deposited data

How the results depend on the processing

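No paired analysis was possible because each mark and treatment had 1 library. Of 52 alternative values, 26 stayed within the 95% interval of the reported share, median or correlation, or within 1.5 times the reported count, and 26 did not. A reversal meant a change of sign, which only the summed reach and the correlation could show, and 0 reversed. With an overlap of at least 50% of both peaks, 12.7% of H3K4me3 and 52.97% of H3K9cr peaks had no partner. With partners allowed within 1 kb the H3K9cr share was 46.9%. Merging peaks within 1 kb gave 44.96% for H3K9cr and a rank correlation of 0.861. In the stronger 50% of each list the shares were 0% and 46.1%, the summed reach 262 bp, H3K9cr beyond both edges 74.6%, and the correlation 0.635. There, 0 genes had H3K4me3 without H3K9cr, 18 low-ranked H3K9cr, and 2901 H3K9cr without H3K4me3, since fewer H3K4me3 peaks remain. With the H3K9cr list shortened, the shares were 12.7% and 14.4%, the reach 266 bp, both edges 72.6%, the correlation 0.811, and the gene counts 892, 948 and 77. One-to-one pairs (15782) gave a correlation of 0.883. With low rank set at the lowest 10%, 65 genes had low-ranked H3K9cr. Chosen after seeing the data, H3K9cr peaks with 1 partner gave a reach of 229 bp and 67.96% beyond both edges, and genes with a known start and strand gave 250 with H3K9cr only. The overlap asked for, the list ends and the genes admitted thus each moved counts of unpartnered peaks or genes, while windows of 500 bp or 2 kb, ranking by fold enrichment and adding X and Y changed no result beyond these limits.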

Other observations

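H3K9cr peaks without H3K4me3 gathered in some long genes. Msi2, an RNA-binding protein of neural progenitors, held 38 over 378.9 kb, Gse1, a subunit of a histone deacetylase complex, 31 over 352.9 kb, and the nuclear factor Nfia, which acts in gliogenesis, 26 over 540.8 kb. Npas3, a bHLH-PAS factor of the brain, also held 26, over 824 kb, and Maml2, a Notch coactivator, 23 over 413.0 kb. All of these peaks in Msi2, Nfia, Npas3 and Maml2 overlapped H3K27ac, as did 25 of the 31 in Gse1. Cuedc1 was the shortest of the 15 genes with most such peaks, with 17 over less than 100 kb, 16 of them with H3K27ac. All 15 carried both marks at their start, as did 61.1% of all genes tested. Among genes over 100 kb this class held 1905, against 51, 21, 23 and 313 in the other classes, so both marks were usual there. The counts of peaks were not set against gene length.

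Among genes over 100 kb, 63.6% of the 1905 with both marks at the start held at least 1 such peak (61.4 to 65.8). The share was 25.5% of the 51 with low-ranked H3K9cr (14.3 to 39.6), 19.05% of the 21 with H3K4me3 and no H3K9cr (5.45 to 41.9) and 38.7% of the 313 with neither mark (33.2 to 44.3).

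The pairing was also made within the crotonate lists, 1 library per mark. There 2.19% of 17377 H3K4me3 and 46.9% of 31861 H3K9cr peaks had no partner, the rank correlation over 16997 pairs was 0.851, and the summed reach of H3K9cr had a median of 184 bp. The median rank difference at H3K4me3 peaks with H3K27me3 and without H3K27ac was -9.62 there (n = 1805) and -9.62 in control. Differences between treatments were not tested.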
